A study of Mus musculus with 9 samples.

Results

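The levels of 8 genes of phosphate transport and its control were followed in kidneys of Bmal1 knockout and wild-type mice. They were the transporters Slc34a1, Slc34a3, Slc20a1, Slc20a2 and Xpr1, the scaffolds Pdzk1 and Slc9a3r1, and the receptor Fgfr1. They were taken by symbol from 23282 gene rows, with earlier results of these data known. All 8 passed the filter on low values that left 13481 genes for testing. The knockout group (Bmal1 KO, genotype Bmal1 -/-) had 5 libraries and the wild-type group (WT) 4, all from whole kidney of strain C57BL/6. Bmal1, whose gene symbol is Arntl, is the transcription factor that pairs with Clock or Npas2 to drive the circadian clock. The labels state neither the hour of sampling, age nor sex, nor which part of Bmal1 was removed or in which cells. Whether the libraries stand for different mice is not stated either, and the p-values below therefore rest on a library-to-library spread that may be technical.

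In the proximal tubule, filtered phosphate enters the cell with sodium through transporters of the apical brush border and leaves at the opposite side. NaPi-IIa, the product of Slc34a1, carries most of this uptake in rodents, and NaPi-IIc, from Slc34a3, a smaller share. PDZK1 and NHERF1, from Pdzk1 and Slc9a3r1, hold NaPi-IIa at the brush border through their PDZ domains, while parathyroid hormone and FGF23 remove it from the membrane. FGF23 acts on FGF receptors together with the co-receptor klotho. PiT-type transporters, from Slc20a1 and Slc20a2, take up phosphate in nearly all cells, and XPR1 is the phosphate exporter of animal cells.

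Because BMAL1 with its partners binds the E-box CACGTG, the sequences just before the start sites of the 3 genes that fell in knockout are shown first, from RefSeq on GRCm38.p6, 250 bases each, 5′ to 3′, with every match in capitals.
Slc20a1 (chr2:129198523-129198772, + strand): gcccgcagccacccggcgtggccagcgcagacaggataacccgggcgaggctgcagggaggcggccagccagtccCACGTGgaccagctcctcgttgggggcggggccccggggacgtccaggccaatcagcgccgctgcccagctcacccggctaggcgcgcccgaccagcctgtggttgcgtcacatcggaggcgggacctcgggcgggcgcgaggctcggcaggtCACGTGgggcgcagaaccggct
Xpr1 (chr1:155417445-155417694, minus strand): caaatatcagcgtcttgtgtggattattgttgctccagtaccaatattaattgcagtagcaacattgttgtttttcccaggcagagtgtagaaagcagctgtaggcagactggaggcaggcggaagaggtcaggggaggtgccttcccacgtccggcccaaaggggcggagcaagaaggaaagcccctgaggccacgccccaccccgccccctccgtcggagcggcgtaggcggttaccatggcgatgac
Pdzk1 (chr3:96829815-96830064, + strand): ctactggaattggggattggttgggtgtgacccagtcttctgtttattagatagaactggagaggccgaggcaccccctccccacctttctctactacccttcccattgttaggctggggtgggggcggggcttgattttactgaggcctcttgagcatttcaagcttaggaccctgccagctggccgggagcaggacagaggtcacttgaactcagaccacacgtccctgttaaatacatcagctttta
The search covered windows from 250 bases before to 50 after a start, on both strands, for CACGTG, for the related CACGTT and for the D-box TTATGTAA; these do not overlap one another. Slc20a1 held CACGTG in 2 places, at -175 to -170 and at -22 to -17 from its start (chr2:129198598-129198603 and chr2:129198751-129198756), and none in the window of its other start. Among all 32851 windows, 7.15% held at least 1 CACGTG and 0.594% at least 2. The Pdzk1 sequence shown precedes a RefSeq start that lies inside the gene as GENCODE gives it, from 96829284. Pdzk1 also had the window of another start, not shown, which held none of the 3 motifs. Of the 8 genes, 6 had a window (Slc20a2 and Fgfr1 had none), and Slc20a1 was the only one of those 6 with any of the 3 motifs. Of 34 other phosphate handling genes, 31 had a window and 6 of these held CACGTG. These were Slc9a3, Pdzk1ip1, Fgfr2, Ip6k1 and Kidins220, none of which was called, and Dmp1, which had 2 copies as Slc20a1 did and was listed at 0 in all 9 libraries. None of the 31 held CACGTT. Slc17a1, which was called lower in knockout, was the only one with TTATGTAA, at -55 to -48. That motif occurred at least 1 time in 0.938% of all windows. A match is a description of letters, not a site shown to be bound.

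Libraries differed in more than genotype. Back-transformed values behaved as read counts adjusted towards a common size, though no normalization is stated. They summed to 11765219 to 12936926 in knockout and 12407284 to 13486444 in wild type, and raw depth is unknown. Rn45s, the ribosomal RNA precursor, took 6.83% to 14.4% of these sums in knockout and 5.07% to 11.3% in wild type, and Bmal1 KO 4 and WT 2 were the highest of their groups. The same libraries had the most blood marker signal, at 1.85% in Bmal1 KO 4 and 0.830% in WT 2. Arntl lay at 5.65 to 5.99 in knockout and 6.26 to 7.06 in wild type on the log2 scale; a 3′ tag outside the deleted part would still be read, so it does not check the labels. A list of 20 proximal tubule genes, led in abundance by Kap and Miox, had 7 called lower and 0 called higher. Over all tested genes the shares were 8.2% and 6.16%. The median log2 difference of these 20 genes was -0.36. Their summed share was 3.75% to 3.95% in knockout and 5.10% to 6.17% in wild type, or 0.854% to 1.05% and 1.01% to 1.38% without Kap, and all 19 others were above 0 in every library. Fewer cells of a type and less RNA per cell cannot be told apart in whole kidney.

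Among the 8 genes, 3 fell in knockout and none rose: Slc20a1, Xpr1 and Pdzk1 (limma adjusted p under 0.05). Over all 13481 tested genes, 14.4% were called, with 8.2% called lower and 6.16% higher. The median log2 difference of the 8 was -0.30, against 0.0002 over all tested genes. The Slc20a1 decrease was the largest of the 8, and those of Xpr1 and Pdzk1 were close to each other in size. Without Bmal1 KO 4 and WT 2 together the differences were -0.87 for Slc20a1, -0.54 for Xpr1 and -0.45 for Pdzk1, and all 3 still passed. The 7 proximal tubule markers that fell did so in the same direction as these genes, while the other 13 had no call, Kap (adjusted p = 0.0604) and Miox (0.0629) among them, and Slc5a2, Slc5a12, Aqp1 and Gatm had differences of 0.042 to 0.17. Their part in the 3 decreases was not tested.

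**Figure D1:**
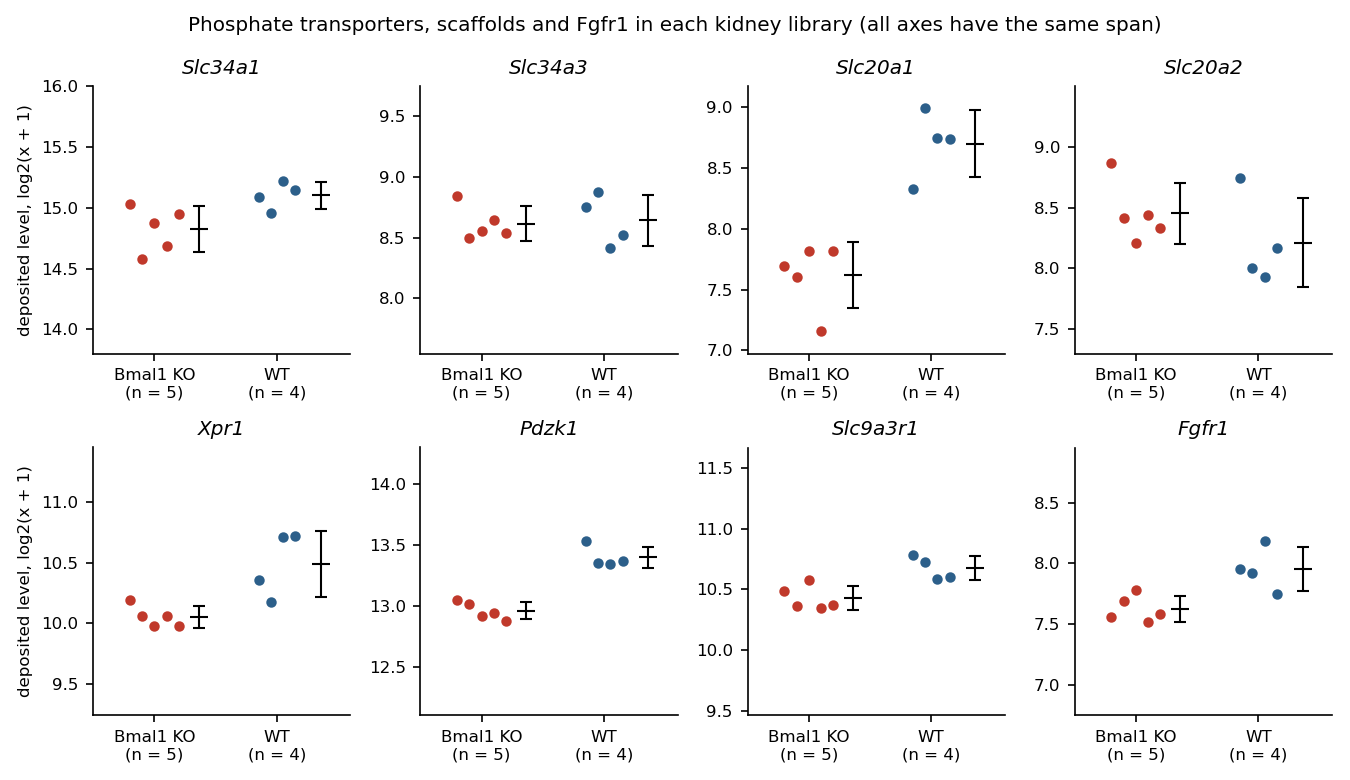
Deposited log2(x + 1) level of each gene (vertical axes, each spanning the same range) in every library, Bmal1 KO on the left in red and WT on the right in blue; bars give the mean and SD beside the points. Slc20a1, Pdzk1 and Slc9a3r1 lay lower in every knockout than in any wild-type library, and the other 5 genes overlapped.

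Of the apical uptake transporters, neither changed past the threshold. Slc34a1 (chromosome 13, 55398187 to 55415592, + strand, GRCm38), which encodes NaPi-IIa, had log2 levels of 15.03, 14.58, 14.88, 14.69 and 14.95 in Bmal1 KO 1 to 5, against 15.09, 14.96, 15.22 and 15.15 in WT 1 to 4. Knockout libraries spread wider and mostly lay below wild type, but Bmal1 KO 1 stood above WT 2. The log2 difference was -0.28 (95% interval -0.55 to -0.0054, SE 0.13, limma adjusted p = 0.173), so that knockout held 82.5% of the wild-type level with an interval of 68.3% to 99.6%. Slc34a1 was more abundant than 99.9% of tested genes, at 2384 CPM in knockout and 2762 CPM in wild type, taken over the summed back-transformed values. The last kilobase of its exons overlaps Pfn3 on the opposite strand, and the strand setting of the authors' counting is not given. Pfn3 itself, named after its values were seen, averaged 8.03 ± 0.168 in knockout and 8.25 ± 0.325 in wild type (SD, n = 5 and 4), far below Slc34a1. How tags in the shared stretch were assigned is unknown, and the part of the overlap in the Slc34a1 values was not tested.

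Slc34a3 (chromosome 2, 25228898 to 25234364, minus strand), whose human counterpart is mutated in a hereditary hypophosphataemic rickets, was at 8.85, 8.495, 8.55, 8.65 and 8.53 in knockout and at 8.75, 8.88, 8.41 and 8.52 in wild type. The groups covered nearly the same range. Its log2 difference was -0.026 (95% interval -0.30 to 0.25, limma adjusted p = 0.924), an interval of 81.3% to 119% of the wild-type level. The sign of this small difference depended on scaling, as it was 0.079 after scaling to the library total without Rn45s.

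Of the ubiquitous transporters, Slc20a1 fell and Slc20a2 did not pass the test. Slc20a1 (chromosome 2, 129198764 to 129211616, + strand), with the E-boxes shown above, was at 7.69, 7.61, 7.82, 7.16 and 7.82 in Bmal1 KO 1 to 5, against 8.33, 8.99, 8.75 and 8.74 in WT 1 to 4. All 5 knockouts lay below all 4 wild types. Bmal1 KO 4 was the lowest library of all and WT 1 the lowest wild type. The log2 difference was -1.08 (SE 0.16, 95% interval -1.43 to -0.74, limma adjusted p = 0.000201; exact permutation p = 0.00794, two-sided, the smallest the 5 and 4 libraries allow). Knockout thus held 47.2% of the wild-type level (interval 37.2% to 60.0%), and 95.4% of tested genes differed by no more than this. The call was kept under all 22 alternatives, with adjusted p of 0.000104 to 0.00597. Some exon sequence of Slc20a1, outside its last kilobase, overlaps 2 noncoding or unclassified transcripts on the opposite strand.

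Slc20a2 (chromosome 8, 22476788 to 22569612, + strand), whose human counterpart is mutated in familial brain calcification, was at 8.87, 8.41, 8.21, 8.44 and 8.33 in knockout and at 8.74, 8.01, 7.93 and 8.17 in wild type. Bmal1 KO 1 and WT 1 were the highest of their groups, and the ranges overlapped. The log2 difference was 0.24 (SE 0.17, 95% interval -0.12 to 0.60, limma adjusted p = 0.396), so that a level between 92.1% and 152% of wild type is covered. It was 0.14 without Bmal1 KO 1, 0.15 without WT 3 and 0.42 without WT 1, and 0.40 with the Rn45s level as a covariate; none of these passed.

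Xpr1 (chromosome 1, 155275701 to 155417415, minus strand), the phosphate exporter, was lower in knockout, with a call that depended on the processing. It was at 10.20, 10.06, 9.98, 10.06 and 9.98 in knockout, against 10.36, 10.17, 10.71 and 10.72 in wild type. The knockouts lay within a narrow band, while WT 3 and WT 4 stood well above WT 1 and WT 2, and Bmal1 KO 1 was just above WT 2. The log2 difference was -0.44 (SE 0.12, limma adjusted p = 0.0199), or 74.0% of the wild-type level (interval 62.2% to 88.0%). It did not pass in 8 of 22 alternatives (adjusted p 0.0504 to 0.0858), among them those without Bmal1 KO 3 (0.0504), WT 3 (0.0740) or WT 4 (0.0825) and the one with the Rn45s level as a covariate (0.0858); the lowest p was without WT 2 (0.00314). The Rn45s shares of WT 1 to 4 were 5.07%, 11.3%, 6.17% and 7.20%, and their part in the Xpr1 levels was not tested.

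The scaffolds were both lower in every knockout than in any wild-type library, but of these Pdzk1 alone passed the test. Pdzk1 (chromosome 3, 96829284 to 96870926, + strand) was at 13.05, 13.02, 12.92, 12.95 and 12.87 in knockout and at 13.53, 13.35, 13.34 and 13.37 in wild type. WT 1 stood above the other wild types, which lay close together. Its log2 difference was -0.44 (SE 0.097, limma adjusted p = 0.00478; exact permutation p = 0.00794, two-sided), a level of 73.7% of wild type (interval 64.0% to 84.9%), and the call was kept in all 22 alternatives (adjusted p 0.00308 to 0.0193). The last kilobase of its exons overlaps Gpr89 on the opposite strand. Gpr89, named after its values were seen, averaged 8.37 ± 0.306 in knockout and 8.35 ± 0.053 in wild type (SD, n = 5 and 4), far below Pdzk1. The part of this overlap in the Pdzk1 values was not tested.

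Slc9a3r1 (chromosome 11, 115163341 to 115181181, + strand), which encodes NHERF1, was at 10.48, 10.36, 10.58, 10.35 and 10.38 in knockout and at 10.79, 10.72, 10.59 and 10.60 in wild type. The groups did not overlap, but Bmal1 KO 3 lay just under WT 3 and WT 4. The log2 difference was -0.24 (SE 0.097, 95% interval -0.45 to -0.041, limma adjusted p = 0.105; exact permutation p = 0.0159, two-sided). Groups without overlap occurred in 3 of the 8 genes, all with knockout lower, and in 14.3% of all tested genes, where 8.46% had knockout lower and 5.86% knockout higher.

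Fgfr1 (chromosome 8, 25513654 to 25575718, + strand), an FGF receptor that binds FGF23 when joined to klotho, was at 7.56, 7.69, 7.78, 7.52 and 7.58 in knockout and at 7.96, 7.92, 8.19 and 7.75 in wild type. Only Bmal1 KO 3 reached above the lowest wild type, WT 4. The log2 difference was -0.33 (SE 0.14, 95% interval -0.62 to -0.033), and it did not pass (limma adjusted p = 0.134). Fibroblasts and vessels also express Fgfr1. Over all tested genes 6.16% were called higher and 8.2% lower. Among 8 markers of fibroblasts, pericytes and smooth muscle (Col1a2 and Dcn the most abundant) 2 were called higher and 0 lower, with a median of 0.53 and a summed share of 0.0315% to 0.0499% in knockout and 0.0242% to 0.0278% in wild type. Among 7 endothelial markers (Plvap and Kdr the most abundant) 2 were called higher and 0 lower (median 0.35; summed share 0.0301% to 0.0504% in knockout and 0.0235% to 0.0308% in wild type). None of these markers was at 0 in any library, and their part in the Fgfr1 values was not tested.

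**Figure D2:**
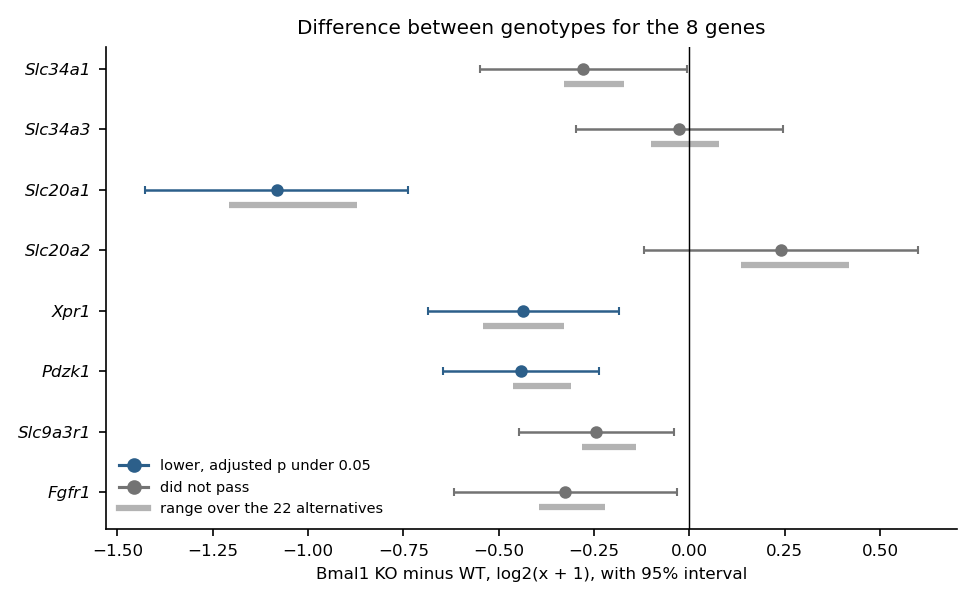
Difference in log2(x + 1) level, Bmal1 KO minus WT (horizontal axis), for the 8 genes, with the 95% interval of the limma fit over all genes; blue points passed an adjusted p of 0.05, grey points did not, and thick grey lines span the values under 22 alternatives. The upper bound of Slc20a1 (-0.74) lies below the lower bounds of the 7 other genes, the nearest being -0.69 for Xpr1.

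Ratios within a library are nearly unaffected by scaling a library by a constant, although they show only unequal change. The difference of Slc20a1 and Slc20a2 was -1.18, -0.80, -0.39, -1.28 and -0.52 in knockout and -0.41, 0.99, 0.82 and 0.57 in wild type on the log2 scale. Slc20a2 was thus the more abundant of the pair in all knockouts, and Slc20a1 in all wild types except WT 1. The means were -0.83 ± 0.392 in knockout and 0.49 ± 0.627 in wild type (SD, n = 5 and 4; difference -1.32, exact permutation p = 0.0159, two-sided, 0.0476 adjusted over 3 ratios). Pdzk1 exceeded Slc9a3r1 by 2.53 ± 0.121 in knockout and 2.73 ± 0.065 in wild type (SD, n = 5 and 4; difference -0.20, exact permutation p = 0.0317, two-sided, adjusted 0.0476). Neither ratio passed when any single library was left out, with adjusted p of 0.0536 to 0.107 for both; fewer splits are then available, so that a pass was hard to reach. Slc34a1 exceeded Slc34a3 by 6.21 ± 0.157 in knockout and 6.46 ± 0.321 in wild type (SD, n = 5 and 4; exact permutation p = 0.190, two-sided, adjusted 0.190).

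**Figure D3:**
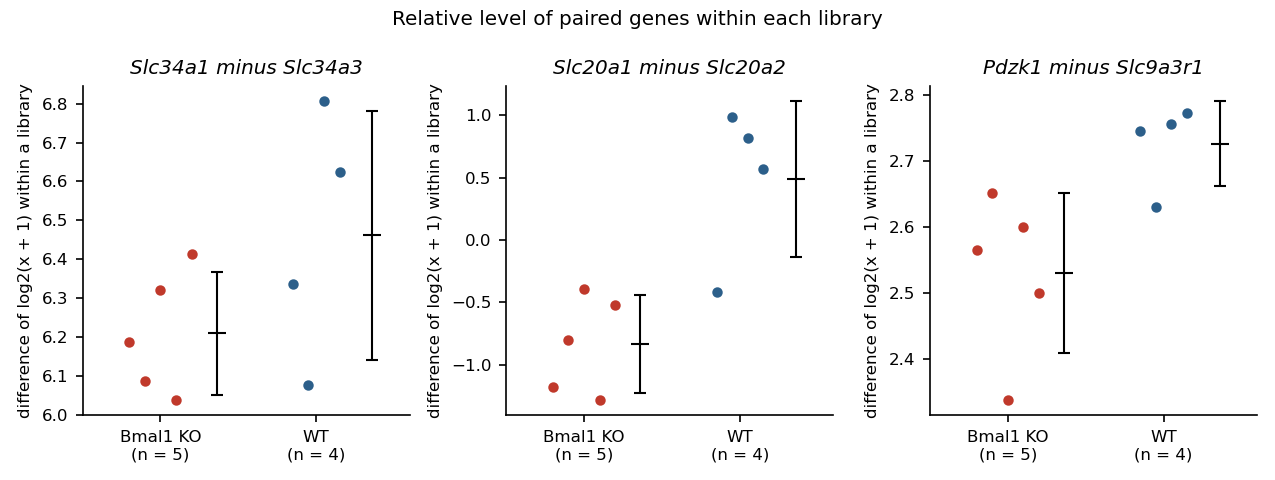
Difference of the log2(x + 1) levels of paired genes within each library (vertical axes), Bmal1 KO in red on the left and WT in blue on the right, with the mean and SD beside the points. For Slc20a1 minus Slc20a2, 3 wild-type libraries lie above 0 and WT 1 (-0.41) among the knockouts.

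The order of abundance was led by the same 4 genes in both genotypes, Slc34a1, Pdzk1, Slc9a3r1 and Xpr1. A 3′ library gives about a single tag per transcript, so levels need no correction for length, though tags of different genes may be captured unequally. In knockout the ranges of neighbours overlapped only between Slc34a3 (mean 8.62) and Slc20a2 (8.45) and between Fgfr1 (7.63) and Slc20a1 (7.62). In wild type they overlapped between Slc9a3r1 (10.67) and Xpr1 (10.49) and along the chain of Slc20a1 (8.70), Slc34a3 (8.64), Slc20a2 (8.21) and Fgfr1 (7.95). Slc20a1 was thus at the bottom with Fgfr1 in knockout, against a place beside Slc34a3 in wild type.

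Within genotypes the 8 genes did not vary as a block. Taking each library's deviation from its genotype mean over the 9 libraries, Pearson r among the 28 pairs ran from -0.54 (Slc34a3 with Xpr1) to 0.90 (Slc20a2 with Pdzk1). WT 1 was the highest wild type for both genes of the last pair. By the same measure, and searched over 12615 other genes, the closest profiles to Slc20a1 were Atp6v0a4 (r = 0.97), a subunit of the kidney proton pump, and Zfp169 (0.97); to Pdzk1 they were Ndufs6 (0.98), a subunit of respiratory complex I, and Fbxo8 (0.98); to Xpr1, Map1b and Wwp1 (both 0.98). For Slc34a1 they were Htra1 (0.98) and Lamp1 (0.96), for Slc34a3 Arl6ip4 (0.96) and Iah1 (0.93), and for Slc20a2 Ctso and Acyp2 (both 0.97). Slc9a3r1 was closest to Vnn1 (0.98) and Tmem238 (0.97), and Fgfr1 to Otulin (0.99) and Blmh (0.94). Values from the same libraries share their scaling and makeup, and the highest of so many coefficients over 9 points are high by selection. These profiles also leave out the difference between genotypes, which can have the opposite sign, as for Atp6v0a4 (0.36) and Slc20a1 (-1.08).

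The wider set of phosphate handling genes held 34 symbols, of which 28 were tested, with 4 higher and 8 lower in knockout, against 6.16% and 8.2% of all tested genes. Of these 4, Stc2, was under the filter in all wild types. The other 6 were below the filter: Fgf23, Dmp1 and Mepe were listed at 0 in all 9 libraries, and Klb, Phex and Sfrp4 did not reach 10 on the linear scale in 4 libraries. The median log2 difference of the 28 was -0.25, and the 16 without a call ran from -0.42 (Ppip5k1) to 1.17 (Cyp27b1).

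Among 8 transport genes, Slc34a2, which encodes the intestinal and lung transporter NaPi-IIb, rose, and the anion transporters Slc17a1 and Slc17a3, first described as sodium-phosphate transporters, fell. Slc34a2 was at 6.85, 5.62, 6.62, 6.26 and 6.14 in Bmal1 KO 1 to 5, against 4.24, 3.26, 4.29 and 3.54 in WT 1 to 4. All knockouts lay above all wild types, and the log2 difference was 2.47 (SE 0.32, limma adjusted p = 4.31e-05) at a level far below that of Slc34a1. Its wild-type values were near the filter, which 3 of the 4 wild types reached. The urothelial markers were also low in wild type: of 7, only Krt7 and Psca, the most abundant, were both called higher and at the filter in all 4 wild types, and Krt15 reached it in none. Their summed share was 0.00752% to 0.0151% in knockout and 0.00393% to 0.00486% in wild type, with differences of 0.80 for Krt7 and 2.74 for Psca; their part in the Slc34a2 value was not tested. Slc17a1 averaged 11.62 in knockout and 12.50 in wild type (difference -0.89, SE 0.12), and Slc17a3 11.30 and 12.44 (difference -1.14, SE 0.15), with limma adjusted p of 4.22e-05 and 3.95e-05. Ezr, the ezrin that ties NHERF1 to actin, had -0.27 (adjusted p = 0.0900), and the sodium-proton exchanger Slc9a3, a partner of NHERF1, 0.13 at a low level (95% interval -1.04 to 1.30).

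Of 12 tested genes of the hormone axis, 5 fell and 2 were called higher, against 8.2% and 6.16% of all tested genes. Stc2, among the 2 called higher, was under the filter in all wild types. Klotho, Kl, was at 11.23, 11.03, 10.90, 10.77 and 11.02 in knockout and at 11.83, 10.94, 11.66 and 11.95 in wild type. WT 2 lay among the knockouts, and the log2 difference was -0.61 (SE 0.16, limma adjusted p = 0.0160). This did not pass in 4 of 22 alternatives, without WT 1 (0.0587), without WT 4 (0.0696), without the variance trend (0.0915) or with the Rn45s level as a covariate, where it was -0.37 (0.0782). The parathyroid hormone receptor Pth1r fell by 0.58 on the log2 scale (SE 0.0996, adjusted p = 0.000576), Vdr, the vitamin D receptor, by 0.49 (SE 0.11, adjusted p = 0.00572) and Galnt3, a glycosyltransferase that protects FGF23 from cleavage, by 1.24 (SE 0.14, adjusted p = 1.04e-05).

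Cyp24a1, which degrades active vitamin D, had the largest decrease of the set. It was at 7.57, 7.57, 7.50, 8.13 and 6.09 in knockout and at 9.31, 9.18, 9.54 and 10.20 in wild type, without overlap. The difference was -2.19 (SE 0.30, limma adjusted p = 5.70e-05), while Cyp27b1, which makes active vitamin D, had 1.17 with a wide interval (0.14 to 2.19, adjusted p = 0.125). Cyp24a1 exons overlap Pfdn4 and those of Pth1r overlap Myl3, both on the opposite strand and outside the last kilobase. Stc1, a stanniocalcin, a secreted glycoprotein family that in fish acts on calcium and phosphate handling, rose (difference 1.25, SE 0.20, limma adjusted p = 0.000364). Stc2, of the same family, was at 5.09, 5.49, 5.40, 5.31 and 4.94 in knockout and at 2.60, 3.41, 3.14 and 3.24 in wild type. All 4 wild types were under the filter, so Stc2 was tested only through its higher knockout values and had to differ; its p is not given. Of the other FGF receptors, Fgfr4 had -0.35 (interval -0.79 to 0.099), Fgfr3 -0.22 (-0.51 to 0.072) and Fgfr2 0.49 (-0.079 to 1.05), and none passed.

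XPR1 senses inositol pyrophosphates, and of 5 genes for their enzymes and an XPR1 partner 1 passed, a share close to the 14.4% of all tested genes. Ip6k2, an inositol hexakisphosphate kinase, had a log2 difference of 0.55 (SE 0.16, limma adjusted p = 0.0295), with means of 8.24 in knockout and 7.69 in wild type. It did not pass in 8 of 22 alternatives (adjusted p 0.0582 to 0.114), including those without Bmal1 KO 1, 2 or 3 or without WT 1, 3 or 4. Of 3 tested genes of pyrophosphate and mineral control, Enpp1, which makes pyrophosphate, fell by 0.72 (SE 0.14, adjusted p = 0.00189); Alpl, the phosphatase that breaks it down, had -0.29 (interval -0.54 to -0.036, adjusted p = 0.124) and Ank -0.19 (interval -0.60 to 0.22).

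**Figure D4:**
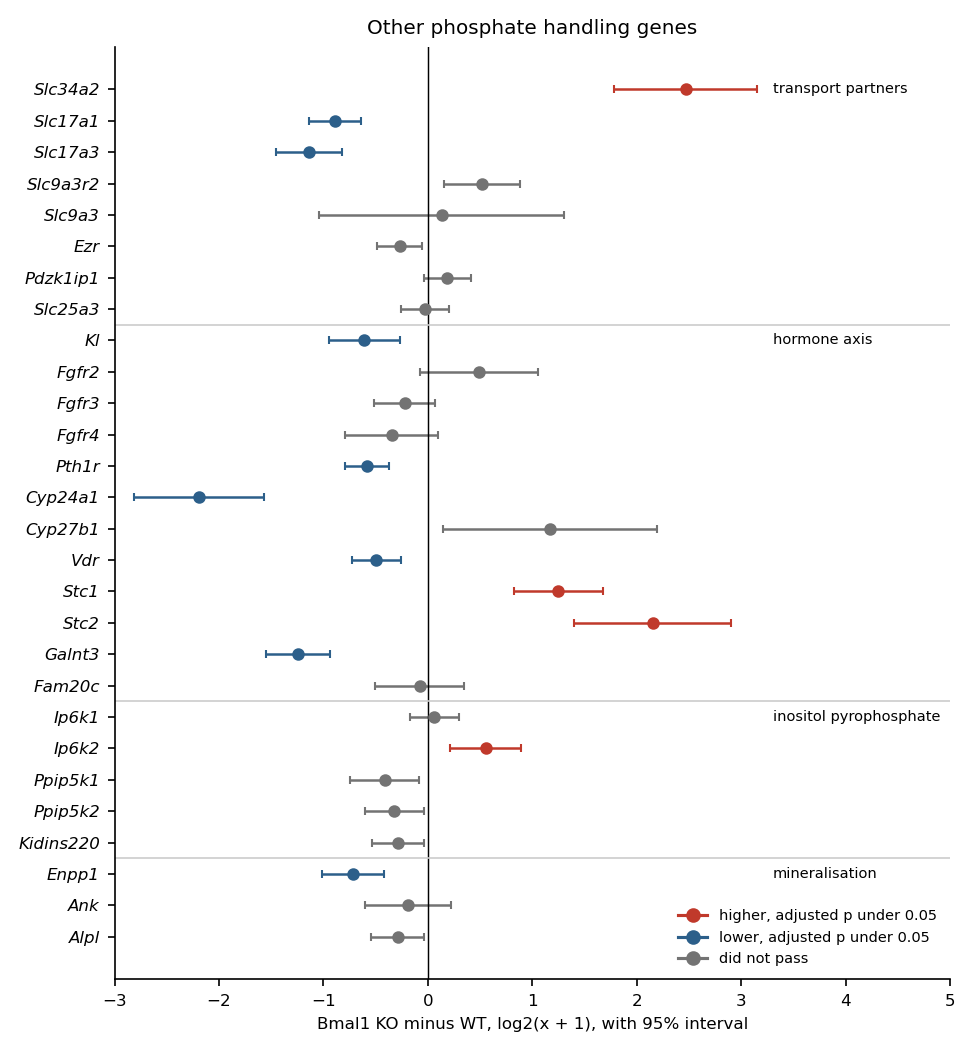
Difference in log2(x + 1) level, Bmal1 KO minus WT (horizontal axis), with 95% intervals, for the 28 tested phosphate handling genes outside the 8, grouped by role; red points are higher and blue points lower at an adjusted p of 0.05, grey points did not pass. Slc34a2 (2.47) and Stc2 (2.15, under the filter in all wild types) lie farthest to the right and Cyp24a1 (-2.19) farthest to the left.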

How the data were processed

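QuantSeq 3′ libraries were made with a Lexogen kit from 500 ng of total kidney RNA, per the labels' protocols. The authors deposited 1 table per library of log2 values, log2(x + 1), where x behaves as a read count adjusted towards a common library size. Bowtie2, bedtools and the build mm10 are named in the submitters' processing notes; for versions, normalization, annotation and strand setting, nothing is given in the sources used here. The values are not counts, so no count model was used.

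Genes with x of at least 10 in at least 4 libraries entered a limma model (version 3.58.1, R 4.3.3) of genotype alone with a variance trend. Its two-sided p-values were adjusted by Benjamini and Hochberg's method across the 13481 genes, and 0.05 was the threshold. The script was checked on simulated data. Single values were also tested by exact permutation of the 9 libraries, without adjustment over genes. For the members whose groups overlapped, the two-sided exact permutation p was 0.0159 for Xpr1, 0.0238 for Fgfr1 and 0.0397 for Slc34a1. It was 0.286 for Slc20a2 and 0.825 for Slc34a3. Positions come from GENCODE on GRCm38, the assembly of mm10, and promoter windows from RefSeq. The listed symbol Ankh was matched to Ank through RefSeq synonyms. No pair of files was identical among 36.

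Named genes were the 8; of the other phosphate handling genes those that passed plus Kl, Pth1r, Fgfr4, Slc17a1, Slc17a3, Slc9a3, Ezr and Cyp24a1; and the 2 closest profiles of each of the 8. Fgfr2, Fgfr3, Cyp27b1, Ppip5k1, Alpl, Ank, the other genes named for a motif and the single markers beyond the 2 most abundant were added after their values were seen, as were Pfn3 and Gpr89. The members, lists and tests were chosen with earlier results of these data known. Alternatives covered pseudocount, filter, scaling, Rn45s, variance model, pairing and left-out libraries. Marker lists for thick limb and distal tubule (4 of 6 rose), collecting duct (2 of 6 rose), podocytes (2 of 6 rose), macrophages and dendritic cells (1 of 8 fell), blood (none of 6 called) and tubule injury (2 of 4 rose) were counted in the same fit. Over all tested genes 6.16% rose and 8.2% fell. The 2 tubule injury genes that rose were Cp and Fgb, while Sox9 had -1.01 (limma adjusted p = 0.0513) and Vcam1 -0.074, neither called. The other 3 of the 7 listed injury genes, Havcr1, Lcn2 and Krt20, were below the filter.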

Additional observations from a re-analysis of the deposited data

Results flagged for a closer look

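Pdzk1 in WT 1, at 13.532 on the log2 scale, stood apart from the other 3 wild-type libraries, which lay at 13.34 to 13.37. Of 22 groups of values examined this way, for the 8 genes and 3 ratios in each genotype, this was the only one, and chance gives about 1 in 20. Without WT 1 the Pdzk1 difference was -0.40 (limma adjusted p = 0.0192). WT 1 had the lowest Rn45s share of all libraries, 5.07%; the part of this in its Pdzk1 level was not tested.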

How the results depend on the processing

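Over 22 alternatives, the count of the 8 genes called stayed at 2 or 3, all lower, the other phosphate handling genes called at 10 to 14, and all genes called at 1312 to 2277 (1426 to 2277 with 1 library left out). Slc20a1 (-1.21 to -0.87) and Pdzk1 (-0.46 to -0.31) were called in each, and Slc34a1, Slc20a2 (0.14 to 0.42), Slc9a3r1 and Fgfr1 in none, each with 1 sign. Xpr1 did not pass with quantile normalization (-0.35), scaling to the total (-0.38) or to the total without Rn45s (-0.33), Rn45s as a covariate (-0.36) or no variance trend (-0.44), and ran from -0.54 to -0.36 with 1 library left out. Slc34a3 turned positive with quantile normalization (0.025), upper-quartile scaling (0.035), scaling to the total (0.032) or without Rn45s (0.079), and without Bmal1 KO 4 and WT 2 (0.045), with -0.10 to 0.053 on leaving out 1 library; no value passed. Slc9a3 turned negative with quantile normalization (-0.12) and the Rn45s covariate (-0.21), with -0.48 to 0.45 on leaving out 1 library. The Pdzk1 to Slc9a3r1 ratio did not pass with quantile normalization (-0.16) or without Bmal1 KO 4 and WT 2 (-0.25), nor the Slc20a1 to Slc20a2 ratio without those libraries (-1.05); with 1 library left out they ran from -0.23 to -0.15 and from -1.62 to -1.16. The cause was not tested.

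Of all called genes, 831 were higher and 1106 lower as deposited, but this balance depended on scaling. It was 890 and 873 with quantile normalization, 1052 and 845 with upper-quartile scaling and 992 and 756 with scaling to the total. Leaving Rn45s out of the total gave 1272 and 695 and moved the median of all genes to 0.105. Libraries with the same number in the labels shared little deviation, as 1 of 4 such pairs correlated above 0.1 (-0.007 to 0.15). This cannot show whether they were handled in pairs. With the label numbers as a replicate block, 1739 genes and 3 of the 8 were called, and Ezr passed (-0.32, limma adjusted p = 0.0458). Raw depth is unknown, so no counting limit is given for genes at 0.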
